A study of Mus musculus with 2 samples.

Results

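Of 23101 shared open-chromatin regions, 885 (3.83%) ranked lower in Gata1-restored erythroid cells than in cells without Gata1. DNase-seq marks such regions by cutting accessible DNA with DNase I and sequencing the cut ends. Merging the peaks of 4 lists wherever they shared 1 bp or more gave 188044 regions, and a shared region held a peak of every list. Each peak got a percentile of signal within its own list (100 for the strongest), and a region took its best peak in each list. A member had a gap of 10 points or more, meaning that the lower of its G1E percentiles exceeded the higher of its G1E-ER4 percentiles by at least that much. Chromosomes 3, 7, 9 and 12 were left out by the rule. The members were thus chosen by their percentiles in these 4 lists, and percentile and gap are given as descriptions without a test.

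The study set 2 states of a mouse erythroid cell system side by side, each as 1 sample with 2 peak lists of 100000 peaks. G1E cells are male, strain 129 erythroid progenitors that lack Gata1, and they received no treatment. G1E-ER4 cells are the Gata1-restored line, of the same sex and strain, collected after 24 h with 10 nM beta-estradiol, which induces their differentiation. Cell line, restored gene and estradiol differ together and cannot be told apart. Nothing in the labels ties the lists of a state to separate cultures, so their spread may be technical. With 2 lists a state there are 3 divisions of the lists into pairs. A 2-sided p-value from permuting the lists could thus not lie under 0.333. Read depth is unknown. The lists of a state differ among themselves (by a median of 14.1 points between the G1E-ER4 lists and 5.24 between the G1E lists in the members). For this reason 4 crossed pairs of lists, each with a list of both states, were put through the same rule as the noise level. A promoter peak was in all 4 lists for 8 of 9 erythroid markers, Klf1, Tal1, Epor and Slc4a1 among them, while neither of 2 T cell nor of 2 liver markers had one in any list. Of 3 monocyte and granulocyte markers, Csf1r had one in all 4 lists, and Mpo and Elane had one in some lists but not in all. Of 2 B cell markers 1 had one in no list, and each of 2 neuron markers had one in some list, but none of these 4 had one in all 4 lists.

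Gata1 is a zinc finger factor that binds GATA sequences, often beside an E-box bound by Tal1, and it activates red cell genes while silencing genes of progenitors and other lineages. PU.1, the product of Spi1, is an ETS factor of myeloid and lymphoid cells that binds a purine-rich sequence, and PU.1 and Gata1 are known to oppose each other in blood progenitors. AP-1 (Fos and Jun) acts downstream of growth factor signalling, and CTCF marks insulators and loop ends.

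The PU.1 motif, held by 66 of the 885 regions (7.46%), got closer attention after its share was seen. It reads GAGGAAGT and was searched on both strands in the 200 bp around the summit of the best peak. The 6 printed next are the members of largest gap that hold it outside exons, each reading 5′ to 3′ on the strand of the motif, with the motif in capitals. Each name is the gene of the nearest start. The sequences are from the NCBIM37 (mm9) genome.
Ropn1l: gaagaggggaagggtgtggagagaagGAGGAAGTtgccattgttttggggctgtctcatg
Dido1: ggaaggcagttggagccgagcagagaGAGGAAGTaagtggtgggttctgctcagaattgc
Anxa3: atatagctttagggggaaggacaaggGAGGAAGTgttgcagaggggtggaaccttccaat
Git2: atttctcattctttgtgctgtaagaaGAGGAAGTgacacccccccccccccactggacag
Cab39: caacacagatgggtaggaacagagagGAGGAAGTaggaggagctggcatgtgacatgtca
Gm10362: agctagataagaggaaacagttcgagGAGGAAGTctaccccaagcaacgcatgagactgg

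These windows lie on mm9 at chr15:31342810-31342869 (minus strand, between genes, Ropn1l), chr2:180427513-180427572 (minus, intron, Dido1) and chr5:97278438-97278497 (minus, between genes, Anxa3). The others lie at chr5:115216615-115216674 (plus, promoter, Git2), chr1:87734826-87734885 (minus, intron, Cab39) and chr15:73271647-73271706 (minus, between genes, Gm10362). The Ropn1l region stood at percentile 80.3 in both G1E lists, and at 6.84 and 20.1 in lists 1 and 2 of G1E-ER4. The region in an intron at Dido1, a chromatin-associated protein, had 32.8 and 8.82 against 88.5 and 89.9. In the Anxa3 region, 56.1 kb from the start of an annexin gene, the values were 31.3 and 21.4 against 79.6 and 89.1. Each of these had low ranks in both G1E-ER4 lists and high ranks in both G1E lists, which is what the rule selects.

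The combined motif of Tal1 and Gata1 was written as CTG, then 7 to 9 bases, then a GATA form. It is shown for the 4 members of largest gap that hold it, with both its elements in capitals.
Utrn: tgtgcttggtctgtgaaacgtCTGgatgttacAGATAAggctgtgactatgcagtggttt
Padi1: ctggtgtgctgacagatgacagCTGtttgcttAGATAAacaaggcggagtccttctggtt
Slc45a3: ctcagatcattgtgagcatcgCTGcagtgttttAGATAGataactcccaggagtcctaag
Lrp6: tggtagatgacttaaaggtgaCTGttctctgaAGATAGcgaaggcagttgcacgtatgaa

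They lie at chr10:12580269-12580328 (minus strand, Utrn), chr4:140410669-140410728 (plus, Padi1), chr1:133839506-133839565 (plus, Slc45a3) and chr6:134476457-134476516 (minus, Lrp6). The Utrn region, 1.25 kb from a start of the gene of utrophin, had percentiles of 30.3 and 17.1 in the lists of G1E-ER4, against 85.4 and 86.8 in G1E. The Slc45a3 region, between genes and 27.7 kb from the start of a membrane transporter gene, had 19.8 and 36.5 against 89.8 and 93.0.

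Over all members the percentile had a median of 37.1 in G1E-ER4 list 1 (0.585 to 82.7) and 45.7 in list 2 (0.272 to 83.7). In G1E it had a median of 76.4 in list 1 (23.8 to 98.8) and 79.0 in list 2 (23.7 to 98.5). The gap had a median of 18.2 points and reached 71.1. Other shared regions had medians of 82.7 and 83.9 in G1E-ER4 and, in G1E, of 82.2 and 83.3. The members' medians were thus under those of other shared regions in all 4 lists, by little in G1E and by far in G1E-ER4, and every member was still called as a peak in both states. Just inside the threshold stood regions at Ankrd33b (gap 10.0000), Gm11143 (10.0115) and Pik3ip1 (10.0120). Just outside it stood Osbp (9.9990), Lamc1 (9.9865) and Olfr1414 (9.9760). At Osbp the G1E-ER4 lists themselves stood far apart, at 4.2 and 71.9.

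**Figure D1:**
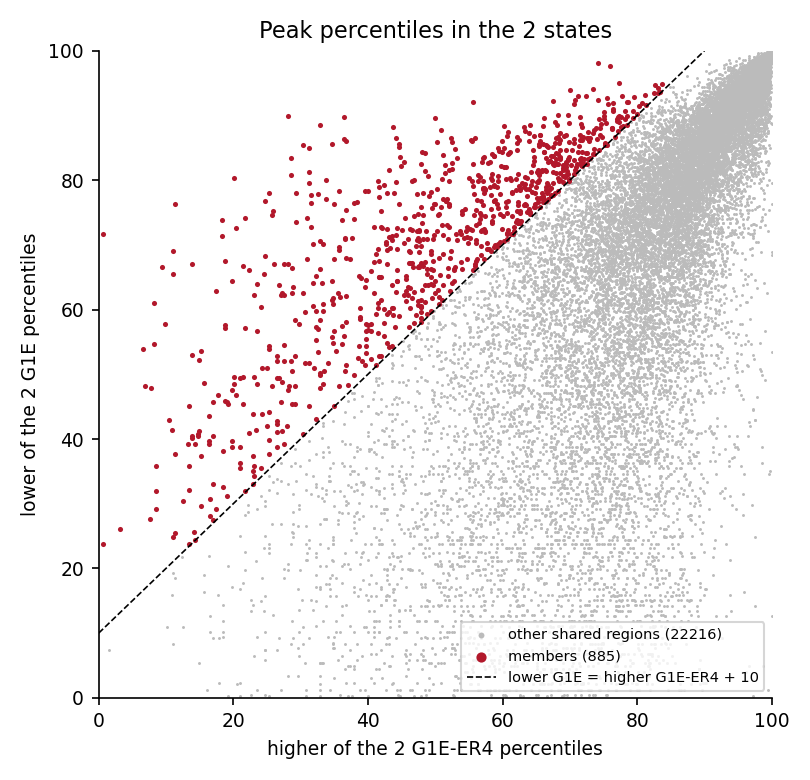
Lower G1E percentile (vertical axis) against higher G1E-ER4 percentile (horizontal axis) of every shared region, both in percentile points within a list. The 885 members lie above the dashed line of the rule by construction, and few of them lie in the upper right corner where most of the 22216 other shared regions sit.

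The reverse rule, G1E-ER4 above G1E by 10 points or more, gave 1039 regions (4.50%), called mirror regions here. The crossed pairs gave 424 (1.84%) for both lists 1 over both lists 2 and 753 (3.26%) for both lists 2 over both lists 1. They gave 623 (2.70%) for G1E-ER4 list 1 with G1E list 2 over the others, and 536 (2.32%) for the reverse. The members thus outnumbered every crossed pair, the highest of them by 885 to 753. This order did not hold where regions were required to have their best summits within 200 bp (411 members, crossed pairs up to 427), where summits of single peaks were matched within 100 bp (381, up to 410) or where peaks of a region were averaged (1111, up to 1564). With a list left out it held without G1E-ER4 list 1 (2495, up to 2294) and without G1E-ER4 list 2 (4190, up to 2170). It did not hold without G1E list 1 (1788, up to 4201) or without G1E list 2 (1367, up to 4087). With a list left out, however, each crossed pair sets 1 list against 2. The states are then not balanced in it, so it is not a noise level in the same sense, here and for the motifs. At a gap of 20 points the counts were 382 members, 409 mirror regions and 126 to 279 crossed regions. At 50 points they were 23, 17 and 3 to 8. At gaps above 0 alone, 3706 regions had both G1E lists on top and crossed pairs reached 4779, so at small gaps the states did not stand apart from the noise.

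**Figure D2:**
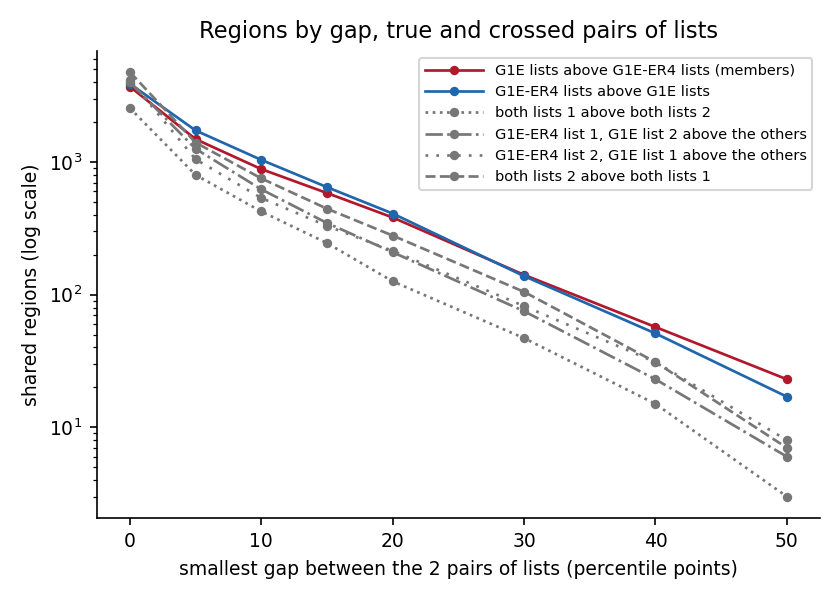
Number of shared regions (log scale) whose 2 higher lists exceed the 2 lower lists by at least the gap on the horizontal axis, in percentile points. The members (885 at a gap of 10) and the mirror regions (1039) run above the 4 crossed pairs (424 to 753 at the same gap), and from gaps of 5 points on they stay above them.

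The 20 members of largest gap lay mostly away from promoters, and 19 of their summits were farther than 3 kb from the nearest start. The widest gap, 71.1 points, was at a region in an intron with its summit 3.85 kb from the start of Pdk2, a kinase that restrains pyruvate dehydrogenase. Its percentiles were 0.585 and 0.272 in the G1E-ER4 lists, against 74.1 and 71.6 in G1E, among the weakest peaks of both G1E-ER4 lists. Its best summits lay 1916 bp apart over the lists, so different peaks of a wide region were compared there. At Rcl1, needed for ribosomal RNA processing, an intron region 41.1 kb from the start had 2.40 and 11.4 against 76.3 and 89.6. A region 64.8 kb from Ano6, a lipid scramblase, had 28.2 and 0.272 against 90.0 and 91.8, with summits within 37 bp of each other. Between genes near Prdm2, a histone methyltransferase, the values were 11 and 6.08 against 71.0 and 69.0. In all 4 of these regions both G1E lists stood at 69.0 or higher and no G1E-ER4 list above 28.2.

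An intron region of Rb1, the retinoblastoma cell cycle inhibitor, had 21.7 and 1.43 in G1E-ER4 against 74.2 and 76.6 in G1E. One 44.7 kb from Ier5, an immediate early gene, had 5.07 and 18.4 against 73.8 and 79.0. An intron region whose nearest start, 136 kb away, was that of Trib1, a pseudokinase that acts on MAP kinase signalling and C/EBP factors, had 31.3 and 14.8 against 84.9 and 86.2. At Lrp6, a Wnt co-receptor, the values were 17.7 and 28.6 against 80.8 and 84.3. Utrn was the only gene with 2 of the 20, the second in an intron at 20.4 and 5.50 against 75.6 and 72.6. The remaining 10 stood at Olfr221, Slc44a1, Padi1, Slc45a3, Pamr1, Metap2, Hs3st3b1 and Lhx1 and at Ropn1l and Dido1 described earlier.

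**Figure D3:**
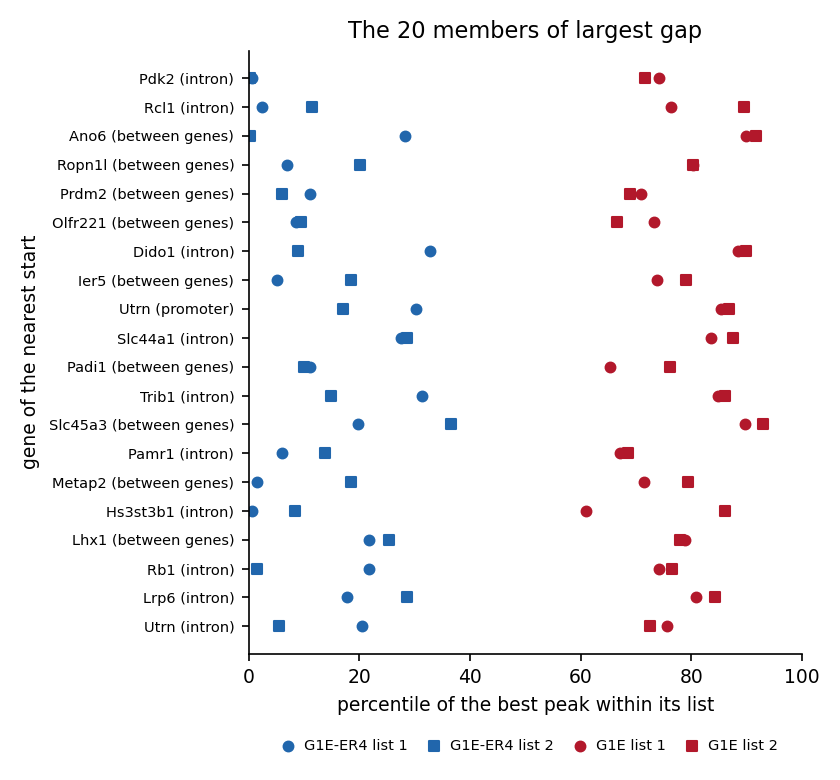
Percentile of the best peak within its list (horizontal axis) for the 20 members of largest gap, with G1E-ER4 lists in blue and G1E lists in red, list 1 as circles and list 2 as squares. No G1E-ER4 value reaches 40 and no G1E value falls under 60, as at Slc45a3 (19.8 and 36.5 against 89.8 and 93.0).

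By place, most members lay away from gene starts. Only 12.4% (Wilson 95% interval 10.4 to 14.8%) overlapped the 1000 bp around an annotated protein-coding start, called a promoter here, while 42.0% had their summit in an intron and 42.1% between genes. Among other shared regions 42.6% lay at promoters. Promoters fill the top ranks of every list, so a second comparison used the 10091 other shared regions of like mean percentile (30.9 to 79.6, the range of the middle 90% of members). There 20.4% lay at promoters, and the members' share was lower by 7.97 points (Newcombe 95% interval 5.50 to 10.1). Mirror regions had 31.1% and crossed pairs 14 to 28.7%. The members' median distance to the nearest start was 12.7 kb, against 9.11 kb in regions of like percentile and 5.88 kb in mirror regions. Without G1E-ER4 list 2, however, the rule gave 4190 regions with 31.8% at promoters, above the 20.1% of regions of like percentile, so the low promoter share rested on that list.

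The 10 promoter members of largest gap were at Utrn, Gna15, Rad52, Muc20, Gm9964, Git2, Ppp1r10, Lancl1, Sox17 and Il1rl1. At Gna15, a G protein alpha subunit of blood cells, a region of 3384 bp had percentiles of 24.7 and 16.6 after Gata1 return, against 81.3 and 76.7 in G1E. At Rad52, a DNA repair gene, the values were 14.1 and 18.8 against 68.7 and 67.5. At Sox17, an endoderm and endothelial factor, they were 2.40 and 7.75 against 47.9 and 66.2. At Git2, whose PU.1 motif is printed earlier and which encodes a regulator of Arf GTPases, they were 35.7 and 20.6 against 78.3 and 78.4. Over all 10 no G1E-ER4 value exceeded 44.8, and the G1E values ran from 47.9 to 94.2.

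Members were narrower and less CpG-rich than other shared regions, and in width they matched regions of like rank. Their median width was 1642 bp, against 2200 bp in other shared regions, 1641 bp in regions of like percentile and 2465 bp in mirror regions. Their median GC content was 51.0% in the 200 bp around the summit, against 55.5, 52.0 and 54.0%, with a median of 3 CpG in that window against 5, 3 and 3. In 46.4% of members the best summits of the 4 lists lay within 200 bp of each other, against 64.9% of other shared regions and 51.5% of those of like percentile. The rest compare peaks at different places in a region.

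The PU.1 motif was in 66 of the 885 members (7.46%). It was in 2.48% of other shared regions of like percentile, 0.962% of mirror regions, 0.943 to 3.45% of crossed pairs and 2.52% of all shared regions. The difference from regions of like percentile was 4.98 points (Newcombe 95% interval 3.39 to 6.92) and that from mirror regions 6.5 points (4.75 to 8.47). These intervals cover the counting of regions only and are not adjusted over the 25 patterns searched. The same letters in another order, GAAGTGAG, were in 2.49% of members, 1.44% of regions of like percentile (difference 1.05 points, 0.173 to 2.32) and 0.866% of mirror regions (difference 1.62 points, 0.480 to 2.93). These control letters thus leaned the same way as the motif, by fewer points, and by gap they ran from 2.36% at the G1E end to 0.733% at the G1E-ER4 end. In mirror regions the best peak is by the rule a G1E-ER4 peak, so members and mirror regions were searched at summits of different states. At the summit of the best G1E-ER4 peak the PU.1 share was 4.97% in members and 0.962% in mirror regions. Closer attention to PU.1 was chosen after its share was seen.

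The share was higher in the bins with G1E on top than in those with G1E-ER4 on top, and beyond 5 points it did not go on rising with the gap. It was 7.07% at gaps of 20 points or more and 7.75% at 10 to 20 among the members. It was 6.62% and 3.75% in regions with G1E above by 5 to 10 and by 0 to 5 points, and 2.25% where the lists of the states overlapped. With G1E-ER4 above, it was 1.15% (0 to 5), 1.16% (5 to 10), 0.952% (10 to 20) and 0.978% (20 or more). Over all 581 shared regions with the motif, the mean percentile was higher in G1E in 74.9% (Wilson 95% interval 71.2 to 78.2%), against 54.2% of regions without it. Outside promoters it was 74.7% of 367 regions, with a median difference of 8.09 points, against 51.4% of all shared regions there, and the next of the searched motifs, IRF, had 59.8%. With promoters included, GFI1 came next at 67.5% and then NRF1 at 67.4%. The control letters GAAGTGAG had 61.4% with promoters included (55.8 to 66.6%) and 55.7% outside them. The crossed divisions of the lists gave 33.0 and 47.4% for the PU.1 motif outside promoters. For NRF1 outside promoters the crossed divisions gave 23.6 and 75% of 72 regions, so shares this far from that of all regions also arose between lists without regard to state. On the 4 chromosomes left out by the rule, 27 of 260 regions that met its gap held the motif (10.4%, 7.24 to 14.7%), against 2.43% of other shared regions and 7 of 440 (1.59%) that met the reverse gap.

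**Figure D4:**
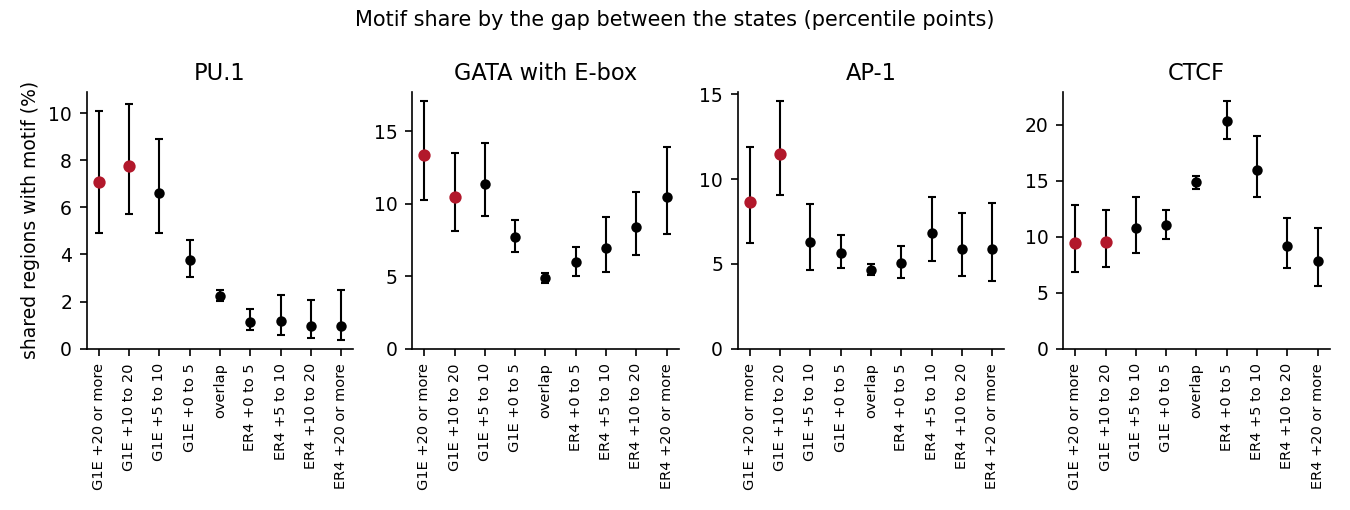
Share of shared regions with a motif (vertical axis, Wilson 95% intervals) by the gap between the states in percentile points, from regions higher in G1E (left, members in red) to regions higher in G1E-ER4 (right, marked ER4). PU.1 falls from 7.07% to 0.978% across the bins, while GATA with E-box is higher at both ends (13.4% and 10.5%) than in the middle (4.89%).

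The PU.1 share was higher in members in every range of base composition. Outside promoters it was 5.77, 8.49, 6.31 and 10.6% of members at a GC content of 30 to 45, 45 to 50, 50 to 55 and 55 to 65%, against 2.07, 1.97, 2.99 and 2.75% of regions of like percentile. Among 32849 words of 8 bases compared without regard to any known factor, the 5 with the largest excess in members over regions of like percentile were AGAGGAAG, GAGGAAGT, AAGAGGAA, AGGAAGTG and AAAGAGGA, which overlap in the purine-rich stretch that includes the PU.1 motif. The first was in 9.04% of members against 3.89%. The word of largest deficit was CCCCGCCC, the SP motif, at 2.37% against 5.41%. With a list left out the PU.1 share was 4.61% without G1E-ER4 list 1, 4.49% without G1E-ER4 list 2, 7.49% without G1E list 1 and 5.63% without G1E list 2. Regions of like percentile then had 2.04 to 2.50%. Without a G1E-ER4 list the highest crossed pair had 5.09 or 5.11%, above the members. Such a pair sets 1 list against 2 and does not balance the states, so it cannot show whether the excess needs both lists.

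The 66 members with the PU.1 motif lay in introns (33) and between genes (26), and 5 lay at promoters. In 46 of them (69.7%) the motif lay within 50 bp of the summit, against 63.3% of the other shared regions that hold it. An A stood directly before the motif in 51.5% of these members and before it by one more base in 54.5%, against 38.5 and 40.2% in other shared regions. A GATA motif was also present in 26 (39.4%), against 45.4% of members without PU.1, and an AP-1 motif in 2 (3.03%), against 10.9%. At least 1 of the PU.1 and AP-1 motifs was in 17.5% of members, against 8.26% of regions of like percentile. In the latter, with 2.48% for PU.1 and 5.94% for AP-1, the motifs also seldom fell together. Whether they did so less often in members was not tested. A region 17.1 kb from Cxcl5, a neutrophil chemokine, had percentiles of 71.7 and 42.8 in the G1E-ER4 lists, against 88.7 and 91.6. A region 15.3 kb from Lcp2, the adaptor SLP-76, had 23.5 and 71.6 against 86.9 and 89.3. A region in an intron near C3, a complement component, had 10.2 and 48.8 against 65.4 and 81.9. These 3 of the 66 were chosen after their values were seen. Among listed genes of granulocytes, monocytes and mast cells, 1 of 31 shared regions was a member (3.23%, against 3.83% of all shared regions). Whether the 66 lie near genes of any cell type more often than other regions was not tested.

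The gene of PU.1 itself, listed under the older symbol Sfpi1, had no member among its 5 shared regions. Its promoter region at chr2:90936116-90939775 had percentiles of 79.7 and 92.9 in the G1E-ER4 lists, against 93.6 and 96.3 in G1E. A second at chr2:90921992-90927194 had 39.6 and 88.0 against 91.5 and 93.0. In both, G1E-ER4 list 1 stood low and G1E-ER4 list 2 close to G1E. An intron region at chr2:90941030-90942200 went the other way, at 91.9 and 91.2 against 79.7 and 87.8.

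GATA motifs (AGATAA, with T allowed as the first and G as the last base) were frequent at the members and also at the mirror regions. They were in 45% of members, 34.0% of regions of like percentile, 40.1% of mirror regions and 22.4 to 38.4% of crossed pairs. The difference from regions of like percentile was 10.9 points (Newcombe 95% interval 7.55 to 14.3), and that from mirror regions 4.84 points (0.407 to 9.25). Outside promoters the mirror regions had 46.1%, and the members' share was higher by 0.878 points, with an interval that included 0 (-4.18 to 5.93). Shuffled GATA letters were in 34.1% of members and 31.3% of regions of like percentile, a difference of 2.87 points (-0.314 to 6.18). They were in 26.2% of mirror regions, 7.95 points fewer (3.83 to 12), which is a wider difference than that of the motif itself. Crossed pairs held them in 21.5 to 41.9%, a range that includes the members' share. The order depended on GC content. Outside promoters, at 45 to 50% GC, 59.0% of members held a GATA motif against 45% of regions of like percentile and 52.5% of mirror regions. At 55 to 65% GC the members had 21.2%, under the 26.1% and 36.3% of those sets. Without G1E-ER4 list 2 the members' share was 33.0%, against 33.8% at like percentile and up to 41.6% in crossed pairs. Without G1E-ER4 list 1 it was 37.8%, against 34.2% and up to 39.0%. The difference from regions of like percentile thus rested on list 2. The highest crossed pair stood above the members in both settings, but with a list left out it does not balance the states.

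GATA with E-box was in 11.8% of members, against 6.38% at like percentile (difference 5.37 points, 3.35 to 7.70), 2.83 to 7.57% in crossed pairs and 9.24% in mirror regions (difference 2.51 points, -0.227 to 5.31). Between members and mirror regions the interval thus included 0. Without G1E-ER4 list 1 or 2 the share was 8.38 or 8.14%, against 6.45 and 5.87% at like percentile. The highest crossed pair then had 7.67 or 8.93%, the latter above the members.

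**Figure D5:**
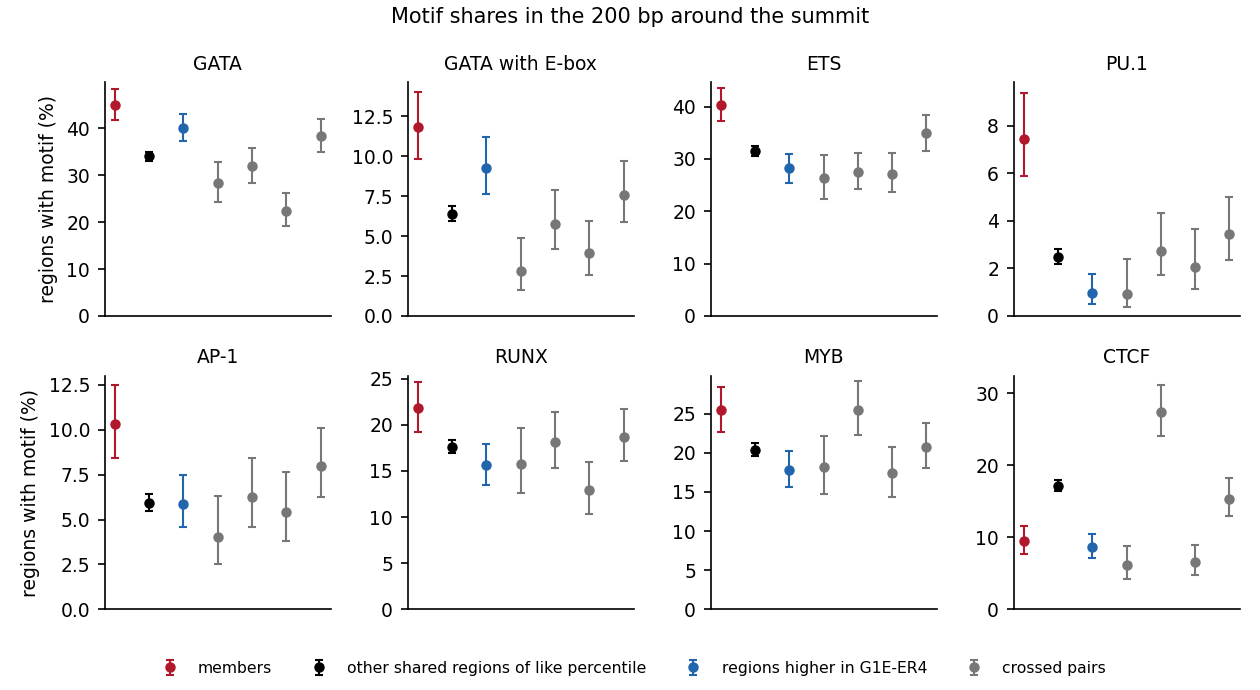
Share of regions with each of 8 motifs in 200 bp around the summit (vertical axes, Wilson 95% intervals), for members (red), other shared regions of like percentile (black), mirror regions (blue) and the 4 crossed pairs (grey). For PU.1 the members stand at 7.46% with crossed pairs at 0.943 to 3.45%, while for CTCF the crossed pairs alone spread from 6.13 to 27.4%.

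The general ETS motif (AGGAAG or CGGAAG) was in 40.3% of members and 31.5% of regions of like percentile, a difference of 8.82 points (5.50 to 12.2). Crossed pairs had 26.4 to 34.9%. Every PU.1 motif also holds an ETS form, and without PU.1 the shares were 32.9 and 29.0%, with 34.3% in all other shared regions. Without PU.1 the members differed from both lists 2 over both lists 1 by 1.41 points (-3.14 to 5.92). Without G1E-ER4 list 1 the ETS share was 34.2%, under the highest crossed pair (35.0%), and without G1E list 2 it was 37.5%, under 39.0%. The AP-1 motif TGAGTCA was in 10.3% of members, 5.94% at like percentile (difference 4.35 points, 2.45 to 6.57), 5.87% of mirror regions and 4.01 to 7.97% of crossed pairs. Against both lists 2 over both lists 1 the AP-1 difference was 2.31 points, with an interval that included 0 (-0.514 to 5.09). The RUNX motif TGTGGT was in 21.8%, against 17.6% (difference 4.19 points, 1.48 to 7.12) and 12.9 to 18.7% of crossed pairs. The RUNX difference had an interval that included 0 against a pair of these, at 3.67 (-0.465 to 7.68) and 3.08 points (-0.841 to 6.95). Without G1E-ER4 list 2 the RUNX share was 17.1%, against 17.4% at like percentile and up to 21.2% in crossed pairs. MYB forms (CAACTG, with T allowed as the first and G as the fifth base) were in 25.4% against 20.4%, but a crossed pair reached 25.5%. The CTCF pattern was in 9.49%, against 17.2% at like percentile (7.74 points lower, 5.51 to 9.65) and 8.66% of mirror regions, within the crossed range. The estrogen receptor motif was in 0 of 885 members, where 3 counts of the total would be 0.339%. With a list left out, AP-1 lay between 6.61% (without G1E-ER4 list 2, against 5.69% at like percentile) and 9.58%. Without G1E-ER4 list 1 it was 6.97%, and without either of these lists the highest crossed pair (7.32 and 7.34%) stood above the members.

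Nearby peaks present in G1E alone were more frequent around the members. Of the members, 61.5% had within 50 kb a region that both G1E lists held and G1E-ER4 lacked (Wilson 95% interval 58.2 to 64.6%). It was 50.9% of regions of like percentile, 47.9% of mirror regions and 49.1 to 54.7% of crossed pairs. Regions of both G1E-ER4 lists alone were within 50 kb of 32.0% of members (29.0 to 35.1%), against 39.4% at like percentile and 55.3% of mirror regions. Crossed pairs had 32.9 to 46.7%, so the members' share did not stand apart from the lowest of them. Of 3300 shared regions within 50 kb of members that met neither rule, 53.6% had a higher G1E mean. It was 52.4% near regions of like percentile, 44.3% near mirror regions and 55.6% of all such regions. A further member lay within 100 kb of 30.8% of members, and a further region of the same set near 21.8 to 25.2% of crossed and 45.3% of mirror regions, a share that grows with the size of the set.

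Members were spread over the chromosomes in shares of 3% (chromosome 15) to 4.76% (chromosome 1) of shared regions on the autosomes. On chromosome X they were 4 of 371 (1.08%, 0.420 to 2.74%), and mirror regions were also few there (1.35%). In windows of 10 Mb, the ratio of peaks between G1E-ER4 and G1E, as log2, ran from -0.57 to 0.48. Of the members 77.5% lay in windows within 0.2 of 0, and there they were 3.75% of shared regions, with crossed pairs at 1.88 to 3.11%. In windows under -0.2, where peaks in general were fewer in G1E-ER4, lay 19.0% of members and 14.8% of other shared regions. In the balanced windows the PU.1 share was 7.58%, against 2.37% at like percentile.

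Of the 885 members, 767 lay within 50 kb of a start, at 709 genes, and 655 of these genes had 1 member. Genes with 3 members, 4 in all, included Il1rl1, Actr3 and Sept9, while mirror regions gave 18 genes with 3 or more and crossed pairs 1 to 6. At Il1rl1, which encodes the interleukin-33 receptor ST2 of mast cells, all 3 shared regions were members. Its promoter region chr1:40483652-40487665 had percentiles of 42.4 and 44.8 in the G1E-ER4 lists, against 83.6 and 94.2 in G1E, and it holds the GATA with E-box motif. The second promoter region, which also holds it, had 35.7 and 53.6 against 72.1 and 83.9. The intron region, without a GATA motif, had 16.3 and 10.4 against 67.2 and 39.2. At Actr3, a subunit of the Arp2/3 actin complex, 3 of 4 were members, among them a region at 47.0 and 48.4 against 84.2 and 91.6. Sept9, a septin, had 3 of 25, with 2 mirror regions. Among genes with 2 members and the widest gaps, Muc20 had both of its shared regions, with a promoter at 2.40 and 9.91 against 69.6 and 57.7. The others were Plxdc1, Atp5a1, Lancl1, Txnrd3 and Gcnt1.

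Known gene groups held few members, and their counts are read against the 3.83% of all shared regions. The lists were chosen with earlier results of these data known, and genes on the 4 chromosomes left out contribute no region. MAP kinase feedback and immediate early genes had 5 members of 56 shared regions (8.93%, Wilson 95% interval 3.87 to 19.3%), with 4 mirror regions and 0 to 1 in crossed pairs. They were at Ier5, given earlier, and at Etv5, Dusp4, Etv4 and Dusp1. Etv5 and Etv4 are ETS factors induced by FGF signalling, and Dusp4 and Dusp1 are phosphatases of MAP kinases. The Etv5 intron region had 25.9 and 22.2 in G1E-ER4 against 75.2 and 80.7 in G1E. The Dusp4 promoter had 73.5 and 66.7 against 92.7 and 87.8. At the Dusp1 region, which holds a PU.1 motif 26.5 kb from the start, the values were 30.3 and 47.8 against 58.1 and 87.9.

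Genes that Gata1 is known to silence had 4 members of 66 (6.06%, 2.38 to 14.6%) and 6 mirror regions. The 4 were the 3 of Il1rl1 and an intron region of Erg, an ETS factor of stem cells and megakaryocytes, at 56.6 and 64.1 against 88.5 and 91.8. Genes that Gata1 is known to activate had 1 of 52 (1.92%), near Bnip3l, a mitophagy receptor, at 39.6 and 35.9 against 63.4 and 67.3. Erythroid transcription factors had 2 of 106 (1.89%), an intron region of Ikzf1 at 63.3 and 58.2 against 87.9 and 87.5 and one of Cbfa2t3, a corepressor of the Tal1 complex, at 30.3 and 2.01 against 88.7 and 40.8. Heme and iron genes had 2 of 57 (3.51%), near the ferritin gene Fth1 (17.7 and 57.0 against 82.8 and 85.3) and the iron importer gene Slc11a2 (27.6 and 56.4 against 79.9 and 84.8). Red cell membrane genes had 3 of 67 (4.48%), near Cd44 (13.4 and 44.2 against 86.5 and 88.4) and at Add2, which encodes beta-adducin, with 2. Crossed pairs reached 4 regions for the silenced genes, 3 for the activated genes and 6 for the erythroid factors. They reached 3 for heme and iron genes and 2 for membrane genes, the only one of these lists where members exceeded them.

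The other groups had 1 to 3 members each. Cytokine signalling genes had 1 of 59, progenitor genes 1 of 64 (Erg again), and ribosome biogenesis and nucleotide genes 1 of 37. Genes of granulocytes, monocytes or mast cells had 1 of 31, 22 kb from the mast cell chymase Cma1, at 67.7 and 57.0 against 88.9 and 91.5. Megakaryocyte genes had 2 of 33 (Plek and Gp1ba), and lymphoid genes 2 of 24, both in introns of Notch1. Cell cycle genes had 3 of 52 (5.77%, 1.98 to 15.6%), at Rb1, E2f1 and Cdkn1a, and housekeeping genes 2 of 37, both at Gusb. Crossed pairs reached 5 for progenitor genes, 3 for granulocyte, monocyte and mast cell genes and 1 for housekeeping genes. They reached 2 for each of the other groups in this paragraph. The intervals of all 14 lists overlap 3.83%, apart from MAP kinase feedback genes, whose lower bound was 3.87%. That bound is not adjusted over the lists, and at 20 kb the count was 3 of 45 (6.67%, 2.29 to 17.9%).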

How the data were processed

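DNase-seq peak lists of G1E and estradiol-treated G1E-ER4 cells were analysed, 2 per state. Per the series' design text, short tags from DNase I cut ends were aligned to mm9 with Bowtie, a tag matching several places was kept at the best one, lanes were pooled per replicate, F-seq turned tags into a density, and peaks were taken from it by a gamma fit. Not given in the sources used here are tool versions, read depth and the peak threshold. The value of each peak is the F-seq signal that the authors deposited. No scaling between lists is stated, so signal was used as a percentile within a list (ties averaged). Equal list lengths mean that a peak that rises displaces others. The summit offset is also as deposited. Precision is limited by the unknown depth, and intervals reflect only how many regions were counted.

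The protein-coding genes of GENCODE vM1 placed regions at promoters (1000 bp or less from a start), in exons, in introns (of any gene) or between genes, and regions were named by the nearest start. Coordinates are 1-based on mm9. Listed genes count regions within 50 kb. Of 307 listed symbols 297 matched directly and 9 through older names. Motifs are 25 patterns searched on both strands. The composite of Tal1 and Gata1 is called GATA with E-box, and the longer CTCF, IRF, NRF1 and estrogen receptor patterns are given by name. Shares carry Wilson and differences Newcombe 95% intervals. Sets were compared without a test, with crossed pairs of lists as the noise level. The members, gene lists and motifs were chosen with earlier results of these data known. Named are the 20 members and 10 promoter members of largest gap, the 10 genes with most members (1 of them is not reported here), up to 4 genes per list, and 3 regions on each side of the threshold. The PU.1 alternatives, GC ranges, gap bins, 8-base words, directions by motif, left-out chromosomes and balanced windows were chosen after seeing the data. Alternatives varied gap, percentile, merging, summits, windows, distances and lists. Python 3.11.15, numpy 2.4.6, pandas 2.3.3 and matplotlib 3.10.9 were used, and the steps were tested on simulated data.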

Additional observations from a re-analysis of the deposited data

How the results depend on the processing

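The number of members was 1489, 584 and 382 at gaps of 5, 15 and 20 points, 381 with summits matched within 100 bp and 411 with best summits within 200 bp, and 1367 to 4190 with a list left out. It stayed within 1.5 times of 885 under the other alternatives (852 merged across 150 bp, 1145 with all chromosomes, 1195 with percentiles among shared regions, 1111 with averaged peaks, 686 in balanced windows). The promoter share was 10.4% within 500 bp and 19.7% within 2500 bp of a start, and 12.5 to 31.8% with a list left out. By the summit alone it was 7.80%, with the lowest crossed pair at 7.54%. In windows of 100 and 400 bp, the GATA share was 29.7 and 60.1%, the ETS share 25.4 and 59.3% and the PU.1 share 5.08 and 8.59%. Around the best G1E-ER4 summit the ETS share was 34.0% (30.9% at like percentile) and the PU.1 share 4.97% (2.15%). Crossed pairs there reached 34.5% for ETS, above the members, and 2.92% for PU.1. With a list left out the GATA share was 33.0 to 45.5%, the ETS share 34.2 to 41.5% and the PU.1 share 4.49 to 7.49%. The PU.1 share was 5.84% with best summits within 200 bp (2.27% at like percentile, crossed pairs up to 3.51%) and 2.49% for its letters in another order. A further member lay within 50 and 200 kb of 20.6 and 45.6%, and a G1E-only region within 20 and 100 kb of 37.3 and 79.1%, where regions of like percentile had 26.3 and 71.4%. Summed over the gene lists, with the region at Erg counted in both of its lists, listed genes had 30 members, 25 at 20 kb and 36 at 100 kb. Shares move with window and distance by construction. For lists left out, the cause was not tested. In every one of these settings the PU.1 share of members lay above that of regions of like percentile. No paired analysis was possible because each state is 1 sample. Depth is unknown, so no limit on weak peaks can be given.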
